A study of Homo sapiens with 9 samples.

Results

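The cholesterol and fatty acid synthesis genes described here are 31 listed symbols, of which 30 were found among the 57820 gene identifiers of the count table by joining Ensembl identifiers, without version, to symbols. No identifier in the table matched ACACA, an acetyl-CoA carboxylase that makes malonyl-CoA, so it has no value below. A symbol was found for 52338 of the identifiers, and whether ACACA was counted under one without a symbol was not tested. The genes were read in tumours grown in nude mice from A375, an established human melanoma line with a mutated BRAF gene. Cells carried either RNF4 or its catalytically inactive RING mutant under a doxycycline (Dox) inducible promoter; RNF4 is a ubiquitin ligase that recognises SUMO-modified proteins, and the study asked which transcripts depend on it. The untreated group was RNF4 cells without Dox (libraries T1, T4 and T12), the induced group was RNF4 cells with Dox (T2, T5 and T13), and the third group was RING mutant cells with Dox (T3, T6 and T14). Dox was put in the drinking water on day 3 and tumours were collected on day 30. Each of the 9 libraries came from a pool of 2 tumours. All 3 groups are stable lines of the same parental cells. In the sequenced groups Dox was never given to cells lacking an RNF4 construct, and the mutant was not sequenced without Dox, so construct and Dox cannot be told apart where the mutant with Dox is set against RNF4 without Dox. Between induced and untreated RNF4, Dox and RNF4 induction changed together and cannot be told apart either. The series text describes GFP tumours as controls, while the sample titles call the controls RNF4 without Dox. Mice, apart from being nude, are not further described in the labels.

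Cholesterol is built from acetyl-CoA through mevalonate, isoprenoid diphosphates, squalene and lanosterol, and fatty acids are built from the same acetyl-CoA pool. Both routes are driven by the SREBP transcription factors: when membrane sterol is low, SCAP escorts SREBP from the endoplasmic reticulum to the Golgi, where it is cleaved and released to the nucleus, and INSIG proteins hold the complex back when sterol is plentiful. Tumour cells use the products for membranes, protein prenylation and signalling lipids.

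Among the 30 measured genes, 0 were called in any comparison of the groups, beside 0% of the 18618 genes tested, RNF4 included. All 30 were detected in all 9 libraries. For each of the 30, the widest gap between libraries of 1 group was larger than the widest gap between group means. T1 (untreated) and T2 (induced) were the 2 highest or the 2 lowest libraries for 21 of 30 members, beside 42.2% of all genes. T1 had the highest MSMO1, IDI1, STARD4 and SC5D and the lowest FASN, ACLY and HMGCS1.

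Depth was 16416426 to 28934692 counts per library. T1 and T2 also stood apart in a measure that uses no member: the share of counts from ribosomal protein genes was 24.9% (T1) and 15.2% (T2), and in no other library was it outside 6.01% to 8.98%. RNF4 itself was at 33.4, 52.0 and 43.2 CPM in the untreated libraries and 380, 413 and 454 CPM in the induced ones. In the libraries labelled RING mutant it was at 47.0 CPM in T3, 559 CPM in T6 and 63.5 CPM in T14, so T3 and T14 lay near the untreated level and only T6 showed an induced level. All 10 melanoma and melanocyte lineage markers had counts, with a summed level of 239 to 485 CPM. The highest were CSPG4, at 146 to 393 CPM, and SOX10, at 39.0 to 80.8 CPM. Pigment genes were low: MLANA was at 0.74 to 1.87 CPM, PMEL at 0.74 to 10.1 CPM, DCT at 0.07 to 6.92 CPM and TYR at 0 to 1.47 CPM. Other markers of the list were low too: S100B was at 0.91 to 8.61 CPM, MIA at 1.28 to 8.47 CPM and S100A1 at 1.30 to 3.41 CPM. MITF was at 10.6 to 22.1 CPM. CPM are normalised read counts, scaled to library size with TMM factors. These factors were 0.73 in T1 and 0.89 in T2, against 1.02 (T3) to 1.08 (T12) elsewhere. No level is an absolute amount per cell: in these bulk tumours fewer expressing cells and less RNA per cell cannot be told apart. The submitters' processing notes name only a human genome build, and how far mouse host reads entered the counts was not tested.

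The stretches before the start sites of the genes are shown here because SREBP activates transcription weakly alone and works with NF-Y, which binds CCAAT, and Sp1, which binds GC boxes. RefSeq promoters (GRCh38.p14) were matched for 27 of the 31 symbols, ACACA included; FASN, ACAT2, SQLE and FDFT1 were unmatched. Windows of the 250 bases before each annotated start were searched on both strands for the NF-Y box CCAAT, the GC box GGGCGG, the palindromic E-box CACGTG and, as a form of the sterol regulatory element, the letters TCACNCCAC; a gene counted once whatever its number of start sites. CCAAT was present in 19 of 27 member genes (70.4%), against 37.0% of all 27305 genes in the table and 41.0% of the 12121 of them that passed the expression filter. GGGCGG was present in 26 of 27 (96.3%), against 46.2% and 72.2%. CACGTG was in 3 of 27 (SC5D, INSIG1 and SCAP; 11.1%, against 7.73% and 10.8%), and TCACNCCAC was in SREBF2 alone (3.70%, against 1.09% and 1.16%). The members without CCAAT in the window were PMVK, CYP51A1, SREBF1, SCAP, FADS1, FADS2, ELOVL6 and LPIN1. Matches are letters in a window, not shown binding sites; in IDI1 and NSDHL 1 pair of opposite-strand CCAAT matches shares letters. Below are 4 windows, 5′ to 3′ on the strand of the gene, chosen after the matches and values were seen: MSMO1 and STARD4 because their transcripts were high in T1 and T2, HMGCS1 because its transcript was low there, and SREBF2 because it holds the sterol element. Capitals mark CCAAT, read as ATTGG on the other strand, and in SREBF2 also the sterol element, 133 bases before the start.
MSMO1 (chr4:165327419-165327668, plus strand, 4 CCAAT): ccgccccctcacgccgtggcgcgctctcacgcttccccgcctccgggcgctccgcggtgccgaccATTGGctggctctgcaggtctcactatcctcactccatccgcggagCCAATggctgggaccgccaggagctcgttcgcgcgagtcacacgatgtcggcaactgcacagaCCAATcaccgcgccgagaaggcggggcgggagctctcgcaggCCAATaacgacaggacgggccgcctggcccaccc
STARD4 (chr5:111512536-111512785, minus strand, 2 CCAAT): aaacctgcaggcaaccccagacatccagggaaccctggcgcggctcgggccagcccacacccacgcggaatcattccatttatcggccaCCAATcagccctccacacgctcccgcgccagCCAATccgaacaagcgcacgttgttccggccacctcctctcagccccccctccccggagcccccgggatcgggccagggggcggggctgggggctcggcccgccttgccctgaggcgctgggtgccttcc
HMGCS1 (chr5:43313413-43313662, minus strand, the farther upstream of its 2 annotated starts, 2 CCAAT): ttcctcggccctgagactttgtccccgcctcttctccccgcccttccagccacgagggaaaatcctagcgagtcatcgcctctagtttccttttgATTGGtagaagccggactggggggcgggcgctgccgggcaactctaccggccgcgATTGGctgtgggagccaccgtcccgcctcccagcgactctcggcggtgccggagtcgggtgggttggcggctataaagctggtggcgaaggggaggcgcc
SREBF2 (chr22:41832855-41833104, plus strand, 1 CCAAT and 1 sterol element): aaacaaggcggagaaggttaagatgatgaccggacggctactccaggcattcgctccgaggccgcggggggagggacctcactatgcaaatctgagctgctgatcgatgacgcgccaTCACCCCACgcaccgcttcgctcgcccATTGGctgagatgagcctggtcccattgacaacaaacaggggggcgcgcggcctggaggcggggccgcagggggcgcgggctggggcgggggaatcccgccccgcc

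Per kilobase of the principal transcript, the scale on which genes can be set side by side, the mean level over the 9 libraries ran from 1.83 CPM per kilobase for CYP51A1 to 88.5 for FADS1. FDFT1 (77.1), FASN (62.0), SCD (52.1) and MSMO1 (47.8) followed FADS1. Of the early pathway FDPS (41.0) was also abundant, and of the control genes SREBF2 (38.7) and INSIG1 (37.8). The 4 scarcest members all act in the sterol ring steps: CYP51A1, TM7SF2 (5.64), NSDHL (5.66) and EBP (8.29). All 30 passed the filter on low counts. The low CYP51A1 value rests on 76 to 214 counts per library, and in GENCODE 29 its exons overlap those of a same-strand gene, AC000120.2; how the authors' counting treated reads shared by both is not given in the sources used here.

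**Figure D1:**
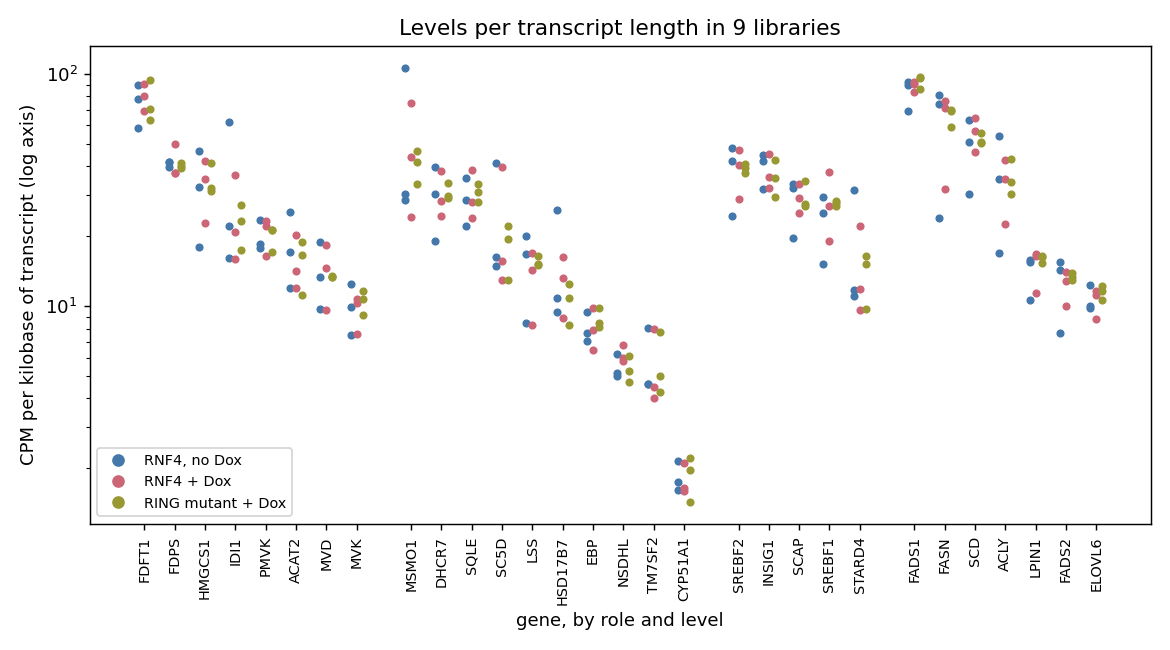
Level of each member in CPM per kilobase of transcript (log axis), by role and falling mean level; each point is 1 of the 9 libraries, coloured by group. The points of the 3 groups overlap for every gene, and the widest columns of points belong to MSMO1, IDI1, FASN, STARD4, SC5D, ACLY and HSD17B7.

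In the mevalonate and isoprenoid steps, values are given in the order T1, T4, T12 (untreated), T2, T5, T13 (induced) and T3, T6, T14 (RING mutant), as they are throughout. ACAT2, the cytosolic thiolase that joins acetyl-CoA units, was at 80.9, 54.4 and 38.0 CPM untreated, 64.5, 37.9 and 44.9 CPM induced and 59.7, 52.8 and 35.6 CPM in the mutant libraries. T1 was highest and T14 lowest, and the groups overlapped. HMGCS1, the cytosolic synthase that makes HMG-CoA, was at 62.7, 164 and 114 CPM untreated, 80.0, 124 and 148 CPM induced and 145, 109 and 113 CPM in the mutant libraries. Here T1 and T2 were the lowest libraries and T4 the highest. HMGCS1 (ENSG00000112972.10) lies at chromosome 5, 43289395 to 43313512, minus strand (GRCh38, GENCODE 29). MVK and PMVK are the kinases, and MVD the decarboxylase, that turn mevalonate into isopentenyl diphosphate. MVK was at 20.7, 34.3 and 27.2 CPM untreated, 20.8, 28.2 and 29.5 CPM induced and 31.9, 29.5 and 25.2 CPM in the mutant libraries. PMVK was at 22.8, 30.0 and 23.8 CPM, 21.0, 28.2 and 29.7 CPM and 27.1, 27.2 and 21.9 CPM in the same order. MVD was at 17.7, 34.5 and 24.3 CPM, 17.6, 26.7 and 33.4 CPM and 24.2, 24.6 and 24.3 CPM. T1 and T2 were the 2 lowest libraries for MVK and MVD, whereas PMVK spanned 1.43-fold in all.

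IDI1, the isomerase of isopentenyl diphosphate, had the opposite order. It was at 209, 74.2 and 54.1 CPM untreated, 124, 53.7 and 70.5 CPM induced and 92.0, 78.5 and 58.6 CPM in the mutant libraries. T1 was 3.90 times T5, the lowest library, and T2 was second. FDPS, which builds the farnesyl diphosphate used for sterols and prenylation, was at 58.7, 61.7 and 61.9 CPM, 55.3, 55.2 and 74.0 CPM and 59.5, 61.3 and 57.9 CPM. FDPS had the narrowest spread of all members, 1.34-fold between its lowest and highest library. FDFT1, squalene synthase and the first step committed to sterols, was at 238, 207 and 155 CPM, 240.3, 184 and 214 CPM and 252, 188 and 168 CPM. The libraries of every group interleaved for FDFT1.

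In the sterol ring steps, SQLE, squalene epoxidase, was at 65.5, 105 and 84.4 CPM untreated, 83.1, 70.7 and 114 CPM induced and 92.0, 83.0 and 99.2 CPM in the mutant libraries. LSS, which closes the rings to lanosterol, was at 41.9, 99.2 and 82.6 CPM, 40.8, 70.7 and 83.5 CPM and 74.5, 74.1 and 81.0 CPM. T1 was lowest for SQLE, and T1 and T2 together were lowest for LSS. CYP51A1, the lanosterol demethylase, was at 5.20, 6.87 and 5.58 CPM, 6.79, 5.29 and 5.13 CPM and 7.11, 6.34 and 4.60 CPM. DHCR7, the reductase that yields cholesterol, was at 51.0, 106 and 80.9 CPM, 65.4, 75.9 and 102 CPM and 90.1, 79.5 and 78.2 CPM. CYP51A1 had no common order with LSS or DHCR7: T2 and T3 were among its highest libraries.

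MSMO1, NSDHL and HSD17B7 act together to remove methyl groups from the sterol ring, and their transcripts spread unequally. MSMO1, the methylsterol oxidase (ENSG00000052802.8, chromosome 4, 165327623 to 165343160, plus strand), was at 241, 68.8 and 65.1 CPM untreated, 169.8, 54.7 and 99.3 CPM induced and 105, 95 and 75.9 CPM in the mutant libraries. Its highest library, T1, was 4.41 times its lowest, T5, the widest span of the 30 members. HSD17B7, the ketosteroid reductase, was at 30.9, 11.2 and 12.9 CPM, 19.3, 10.6 and 15.7 CPM and 12.9, 14.9 and 9.89 CPM. NSDHL, the decarboxylating dehydrogenase, was at 9.65, 12 and 9.90 CPM, 13.1, 11.5 and 11.2 CPM and 11.8, 10.1 and 9.09 CPM. T1 and T2 led for MSMO1 and HSD17B7, while NSDHL spanned 1.44-fold with T1 near its low end. HSD17B7 has a pseudogene copy, HSD17B7P2, at 1.30 to 3.22 CPM, and reads could be split between them.

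SC5D, a sterol desaturase, was at 102, 40.1 and 36.4 CPM untreated, 97.9, 31.9 and 38.5 CPM induced and 54.2, 47.7 and 31.8 CPM in the mutant libraries. T1 and T2 were nearly equal and well above the other 7 libraries. EBP, the sterol isomerase, was at 16.7, 13.6 and 12.5 CPM, 17.4, 11.5 and 13.9 CPM and 17.4, 14.4 and 15.1 CPM, a span of 1.52-fold. TM7SF2, a sterol reductase (ENSG00000149809.10, chromosome 11, 65111845 to 65116384, plus strand), was at 7.94, 7.96 and 13.8 CPM, 6.94, 7.71 and 13.7 CPM and 7.35, 8.57 and 13.4 CPM. For TM7SF2 the 3 libraries T12, T13 and T14, 1 of each group, lay together above all others.

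Of the SREBP control and sterol transport genes, SREBF2, which encodes the SREBP most tied to cholesterol genes, was at 128, 251 and 222 CPM untreated, 151, 212 and 245 CPM induced and 205, 197 and 215 CPM in the mutant libraries. SREBF1, whose products favour fatty acid genes, was at 63.5, 106 and 123 CPM, 79.8, 112 and 157 CPM and 118, 116 and 112 CPM. T1 and T2 were the 2 lowest libraries for both factors, and the 3 mutant libraries of SREBF1 lay within the range of the induced group. SCAP, the escort protein, was at 86.6, 142 and 147 CPM, 110.3, 129 and 148 CPM and 121, 118 and 151 CPM. INSIG1, the retention protein and itself an SREBP target, was at 135, 127 and 96.1 CPM, 136, 97.2 and 109 CPM and 128, 107 and 88.5 CPM. SCAP was lowest in T1 and T2, and INSIG1 was highest there. STARD4, a cytosolic sterol carrier, was at 146, 54.3 and 51.0 CPM, 102, 44.3 and 54.4 CPM and 75.6, 69.8 and 44.9 CPM, with T1 and T2 again the 2 highest libraries.

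Among the fatty acid genes, ACLY, which makes cytosolic acetyl-CoA from citrate, was at 73.3, 234 and 154 CPM untreated, 97.7, 185 and 153 CPM induced and 187, 148 and 132 CPM in the mutant libraries. FASN, fatty acid synthase (ENSG00000169710.6, chromosome 17, 82078333 to 82098332, minus strand), was at 206, 695 and 638 CPM, 275, 654 and 609 CPM and 595, 507 and 599 CPM. For both genes T1 and T2 were the 2 lowest libraries, and for FASN the remaining 7 lay between 507 and 695 CPM. SCD, the desaturase that makes monounsaturated fatty acids, was at 163, 341 and 272 CPM, 248, 305 and 345 CPM and 298, 274 and 269.5 CPM. ELOVL6, an elongase, was at 79.7, 64.5 and 63.4 CPM, 75.1, 56.6 and 72.0 CPM and 74.6, 79.0 and 68.8 CPM. SCD followed FASN in its low T1, and ELOVL6 did not, spanning 1.41-fold with T1 highest. FADS1, a desaturase of polyunsaturated fatty acids, was at 314, 418 and 406 CPM, 378, 409 and 418 CPM and 440.4, 433 and 389 CPM. Its neighbour FADS2, the desaturase acting before it, was at 27.9, 56.2 and 51.9 CPM, 36.3, 46.6 and 50.7 CPM and 48.4, 47.1 and 50.5 CPM. The exons of the pair overlap on opposite strands, and the strand setting of the counting is not given in the sources used here. LPIN1, a phosphatidate phosphatase of triglyceride and phospholipid synthesis, was at 57.1, 84.6 and 83.6 CPM, 61.4, 90.4 and 88.7 CPM and 87.4, 82.5 and 88.4 CPM. T1 and T2 were the 2 lowest libraries for FADS2 and LPIN1.

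**Figure D2:**
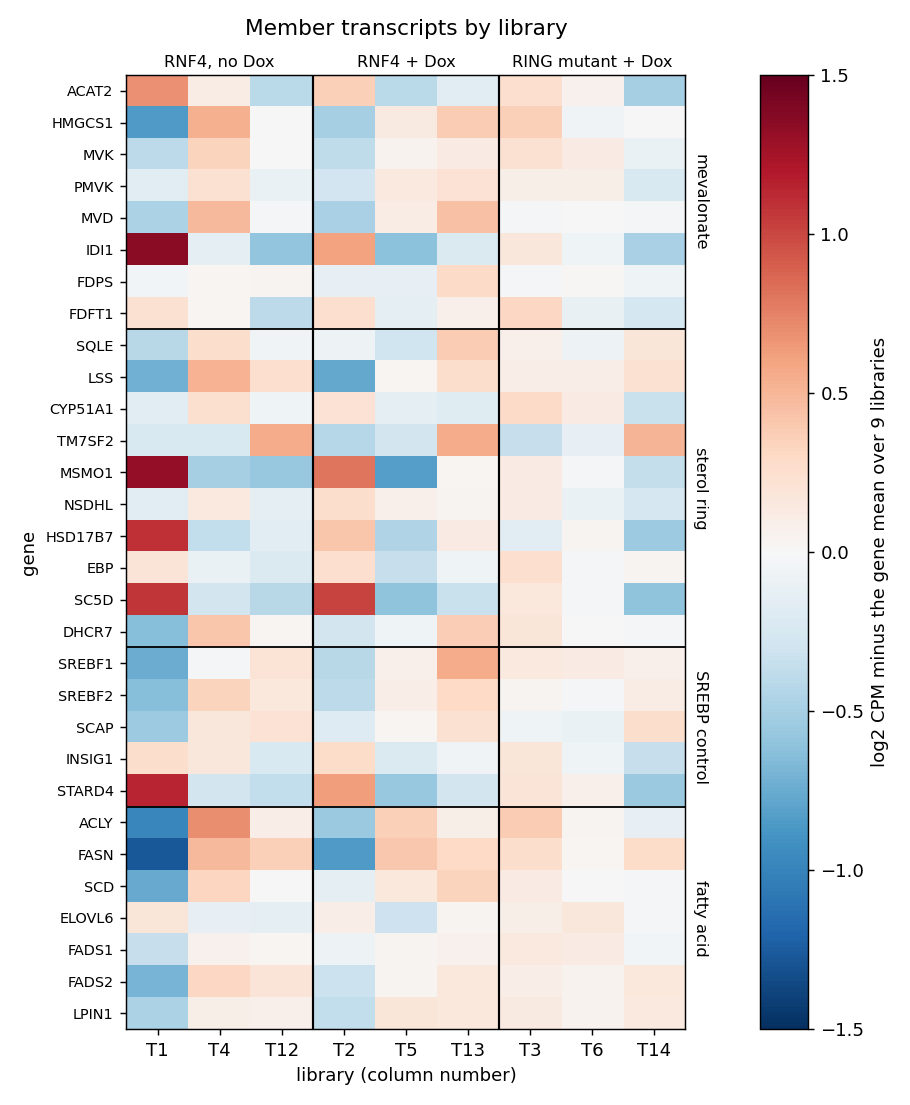
Colour map of each member (rows, by role) in the 9 libraries (columns, by group), as log2 CPM minus the mean of that gene over the 9 libraries. The T1 and T2 columns carry the strongest colours in both directions, red for MSMO1, IDI1, SC5D and STARD4 and blue for FASN, ACLY and LSS, while TM7SF2 is red in T12, T13 and T14.

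Induced RNF4 was first compared with uninduced RNF4, the comparison in which RNF4 itself was 3.28 higher on the log2 scale. At a Benjamini-Hochberg adjusted p under 0.05 over the 18618 genes tested, edgeR's quasi-likelihood test called 0 of 30 members, beside 0% of all genes. RNF4 itself was among the genes not called. At an unadjusted p under 0.05, 0 of 30 members passed, beside 0.596% of all genes. The smallest unadjusted p of a member in edgeR's test was 0.393, for IDI1 (log2 change −0.44, SE 0.49). The largest positive value was that of SREBF1 (0.26, SE 0.30, 95% interval −0.41 to 0.93), and SCD followed (0.21, SE 0.28). The groups overlapped for every member, beside 2.32% of genes whose groups did not. The values of 15 members were above 0 and those of 15 below, with a median log2 change of −0.00028, beside −0.03 over all genes. By role the medians were 0.02 for the mevalonate genes, −0.05 for the sterol ring genes, 0.02 for the SREBP control genes and −0.00107 for the fatty acid genes.

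Induced RNF4 was next compared with the libraries labelled RING mutant. With Benjamini-Hochberg adjustment edgeR's quasi-likelihood test called 0 of 30 members, beside 0% of all genes, and 0 passed at an unadjusted p under 0.05, beside 1.35% of all genes. NSDHL had the smallest unadjusted p in edgeR's test, 0.360, with a log2 value of 0.20 (SE 0.21). SC5D had the largest value, 0.33 (SE 0.50), and LSS the lowest, −0.24 (SE 0.34). No member had groups apart, beside 4.98% of genes, and the median over members was −0.02, beside 0.03 over all genes. Of the 7 fatty acid genes, 6 had values below 0, SCD being the exception at 0.09 (SE 0.28), and none passed the test; 55.8% of all genes were above 0. Without T1 and T2, 3 of the 7 were below 0: ELOVL6 (−0.22), FADS1 (−0.04) and FADS2 (−0.01).

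The libraries labelled RING mutant were also set against untreated RNF4. Here too edgeR's quasi-likelihood test, Benjamini-Hochberg adjusted, called 0 of 30 members, beside 0% of all genes, and 0 passed at an unadjusted p under 0.05, beside 1.75%. HSD17B7 had the smallest unadjusted p in edgeR's test, 0.206 (log2 value −0.54, SE 0.40), and IDI1 the lowest value (−0.56, SE 0.49). All 7 fatty acid genes had values above 0, from 0.02 for ACLY to 0.20 for LPIN1, each smaller than its SE of 0.19 to 0.46, beside 43.2% of all genes above 0. Without T1 and T2, 4 of the 7 were below 0: ACLY (−0.30), FASN (−0.22), FADS2 (−0.14) and SCD (−0.11). The median over the 30 members was 0.03, beside −0.04 over all genes, and no member had groups apart, beside 3.78% of genes. This comparison shares the untreated libraries with the first and the mutant libraries with the second, so the 3 sets of values are not independent. A test of any difference among the 3 groups called 0 of 30 members and 0% of all genes; 1.1% of genes passed it at an unadjusted p under 0.05. In the authors' deposited table the log2 values of the members ran from −0.45 to 0.26 for induced against untreated RNF4, and the smallest adjusted p of a member was 0.9999 over the 3 comparisons.

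The precision behind these values differs by gene. For 24 of 30 members the 95% interval of the log2 change lay inside 2-fold in either direction in each comparison, against 52.9%, 50.4% and 50.2% of all genes tested. The exceptions in all 3 comparisons were IDI1, MSMO1, HSD17B7, SC5D, STARD4 and FASN, 6 of the 7 members that spanned more than 3-fold between libraries, ACLY being the other. For MSMO1 in induced against untreated RNF4 the interval ran from −1.42 to 0.99, and for FASN from −1.03 to 1.03. FDPS was the most precise, at −0.37 to 0.41. These intervals take no account of the runs of column numbers described below. With runs as a block, the SEs in induced against untreated RNF4 were smaller for the 6 exceptions. They went from 0.49 to 0.28 for IDI1, 0.54 to 0.34 for MSMO1 and 0.40 to 0.31 for HSD17B7. For SC5D they went from 0.50 to 0.25, for STARD4 from 0.45 to 0.25 and for FASN from 0.46 to 0.36.

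**Figure D3:**
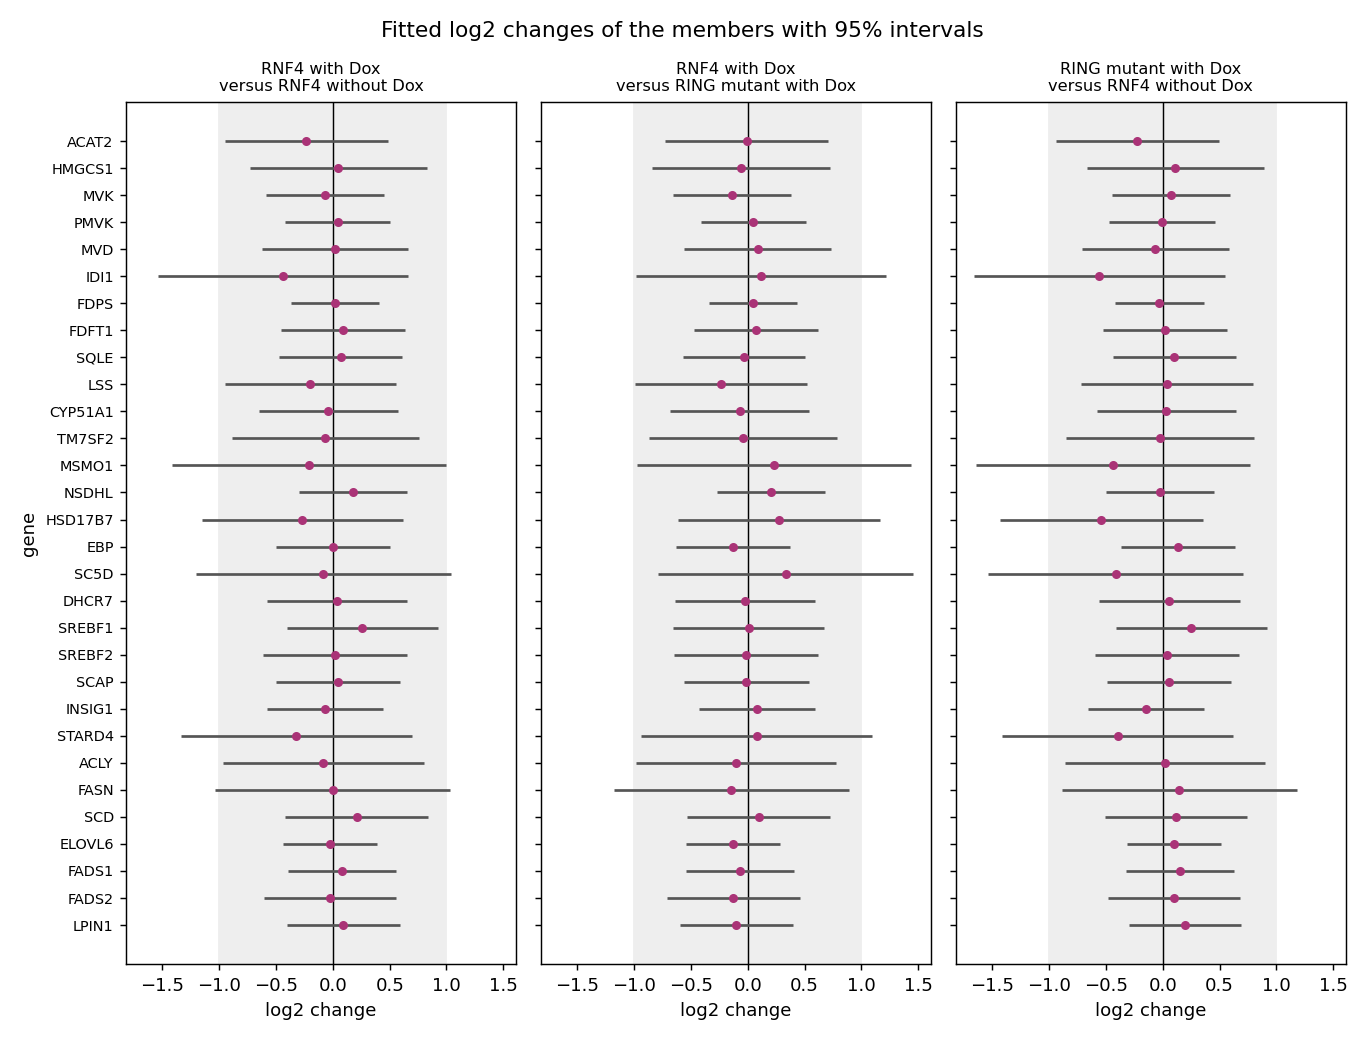
Fitted log2 change of each member (points) with its 95% interval (bars) in the 3 comparisons; the grey band marks 2-fold in either direction. All intervals include 0, and those of IDI1, MSMO1, HSD17B7, SC5D, STARD4 and FASN reach past the band.

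T1 and T2 were left out together, a choice made after seeing the data, because their ribosomal protein share stood apart. With T4 and T12 against T5 and T13, the SEs of the members ran from 0.14 to 0.40, and the intervals of all 30 members lay inside 2-fold in induced against untreated RNF4. The values then ran from −0.26 (CYP51A1) to 0.24 (SREBF1), and 0 of 30 passed at an unadjusted p under 0.05, beside 1.33% of all genes. IDI1 went from −0.44 to −0.05 and MSMO1 from −0.21 to 0.20. For RING mutant against untreated RNF4, MSMO1 turned from −0.44 to 0.48 (SE 0.25, 95% interval −0.09 to 1.04), with an unadjusted p of 0.0893 and an adjusted p of 0.956 in edgeR's test. With T6 as the only RING mutant library, also a choice made after seeing the data, 0 members were called and the member median was 0.02 for induced RNF4 against the mutant and −0.02 for the mutant against untreated RNF4. In that setting the spread of the lone library is taken from the other groups.

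Library columns come in 3 runs of numbers (T1 to T3, T4 to T6 and T12 to T14), each with 1 library of every group; the labels do not say what a run is. Within runs, few members kept 1 sign across all 3 differences. For induced against untreated RNF4 these were SREBF1 (0.33, 0.09 and 0.36 in log2 CPM) and LPIN1 (0.10, 0.10 and 0.09) on the higher side and TM7SF2 (−0.19, −0.05 and −0.01) on the lower side, 3 of 30 beside 17% of all genes (8.28% higher and 8.73% lower). For induced RNF4 against the RING mutant they were NSDHL, higher, and EBP, lower, beside 19.7% of genes (11.1% and 8.57%). For the mutant against untreated RNF4 they were EBP, higher, and ACAT2 and INSIG1, lower, beside 14.4% (5.9% higher and 8.46% lower).

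**Figure D4:**
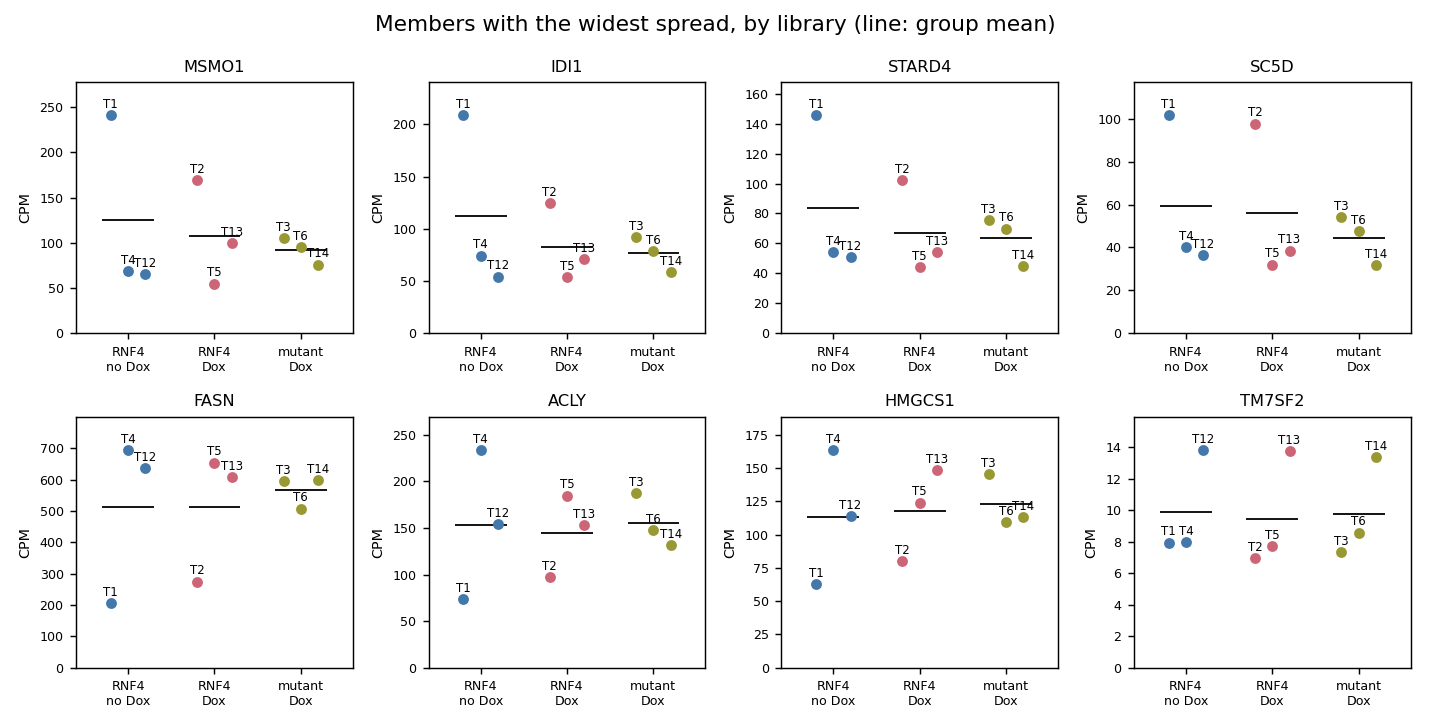
CPM of 8 members with wide or unusual spread in each library (points, labelled by column number), by group, with the group mean as a line. T1 and T2 are the highest points for MSMO1, IDI1, STARD4 and SC5D and the lowest for FASN, ACLY and HMGCS1; TM7SF2 is high in T12, T13 and T14.

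The library pattern was described without a test, because T1 and T2 were singled out from their values. Between its lowest and highest library a member spanned 1.34-fold to 4.41-fold; 14 of 30 spanned more than 2-fold and 7 more than 3-fold. T1 and T2 were the 2 highest of the 9 libraries for 7 members and the 2 lowest for 14, beside 23% and 19.2% of all genes, which makes 21 of 30 members beside 42.2%. Against the mean of T4 and T12, T1 was more than 0.5 higher in log2 CPM for 6 members (ACAT2, IDI1, MSMO1, HSD17B7, SC5D and STARD4) and more than 0.5 lower for 14. The lower set was HMGCS1, MVK, MVD, SQLE, LSS, DHCR7, SREBF1, SREBF2, SCAP, ACLY, FASN, SCD, FADS2 and LPIN1. These 20 of 30 compare with 59.7% of all genes past the same limit in T1, so a large T1 deviation was common in the whole library. In T2, against T5 and T13, the 6 members on the higher side were the ones named for T1, and 9 were lower, beside 27.4% of all genes higher and 19.5% lower; 15 of 30 compares with 46.9% of all genes on either side. Of the fatty acid genes, 5 of 7 passed the limit on the lower side in T1, beside 28.2% of all genes, and 3 of 7 in T2; none passed it on the higher side, where ELOVL6 had deviations of 0.32 in T1 and 0.23 in T2. The SREBP control genes had 3 of 5 lower in T1 and STARD4 alone higher. In T6 no member passed the limit in either direction, beside 8.49% of all genes higher and 10.7% lower.

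The 2 sides of T1 differed in base composition and in transcript length, neither of which the choice of members used. The 6 higher members had transcripts of 34.2% to 50.2% GC (median 39.9%), and the 14 lower members 40.2% to 65.6% (median 58.3%); the median over the genes tested was 48.6%. Over the 30 members the Spearman coefficient between transcript GC content and the deviation of T1 from its group was −0.58, and that of T2 was −0.69. It was 0.48 and 0.68 in T4 and T12, and 0.56 and 0.64 in T5 and T13. In the RING mutant group the coefficients of T3, T6 and T14 were −0.59, −0.40 and 0.65, so a negative coefficient was not particular to T1 and T2, although member deviations in T3 and T6 were smaller. Deviations within a group sum to 0, so the coefficients of its 3 libraries are not independent. Over all 18163 genes with a known GC content it was −0.38 for T1, −0.43 for T2 and −0.17 for T3. Median transcript length was 2818 bases on the higher side of T1 and 4258.5 on the lower side. The coefficient of length with the deviation was −0.46 over members and −0.43 over all genes in T1, and −0.31 and −0.25 in T2. Over members it was also below 0 in T3 (−0.12) and T6 (−0.22), and it was 0.10 to 0.42 in T13, T14, T4, T5 and T12. The GC and length values share their libraries and are a description only. HMGCS1 went against the GC order: its transcript has 40.2% GC, yet its deviation was −1.12 in T1 and −0.76 in T2.

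With offsets for GC content and transcript length fitted to each library, an alternative chosen after seeing the data, the deviations were smaller for 22 of 30 members in T1 and 25 of 30 in T2. They were also smaller for 19 members in T4, 23 in T12, 20 in T5, 22 in T13, 10 in T3, 19 in T6 and 13 in T14. The offsets were fitted to these same libraries, and the share of all genes with smaller deviations was not counted. The members past 0.5 went from 20 to 14 in T1, where the share of all genes went from 59.7% to 45.9%, and from 15 to 9 in T2, where that share went from 46.9% to 34.4%. The members thus moved much as all genes did. FASN in T1 went from −1.69 to −0.51 and MSMO1 from 1.85 to 1.14. IDI1 went from 1.72 to 1.48 and HMGCS1 from −1.12 to −1.38, so these genes kept a large deviation in T1. The part of the ribosomal protein share and of RNA quality in the pattern was not tested.

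**Figure D5:**
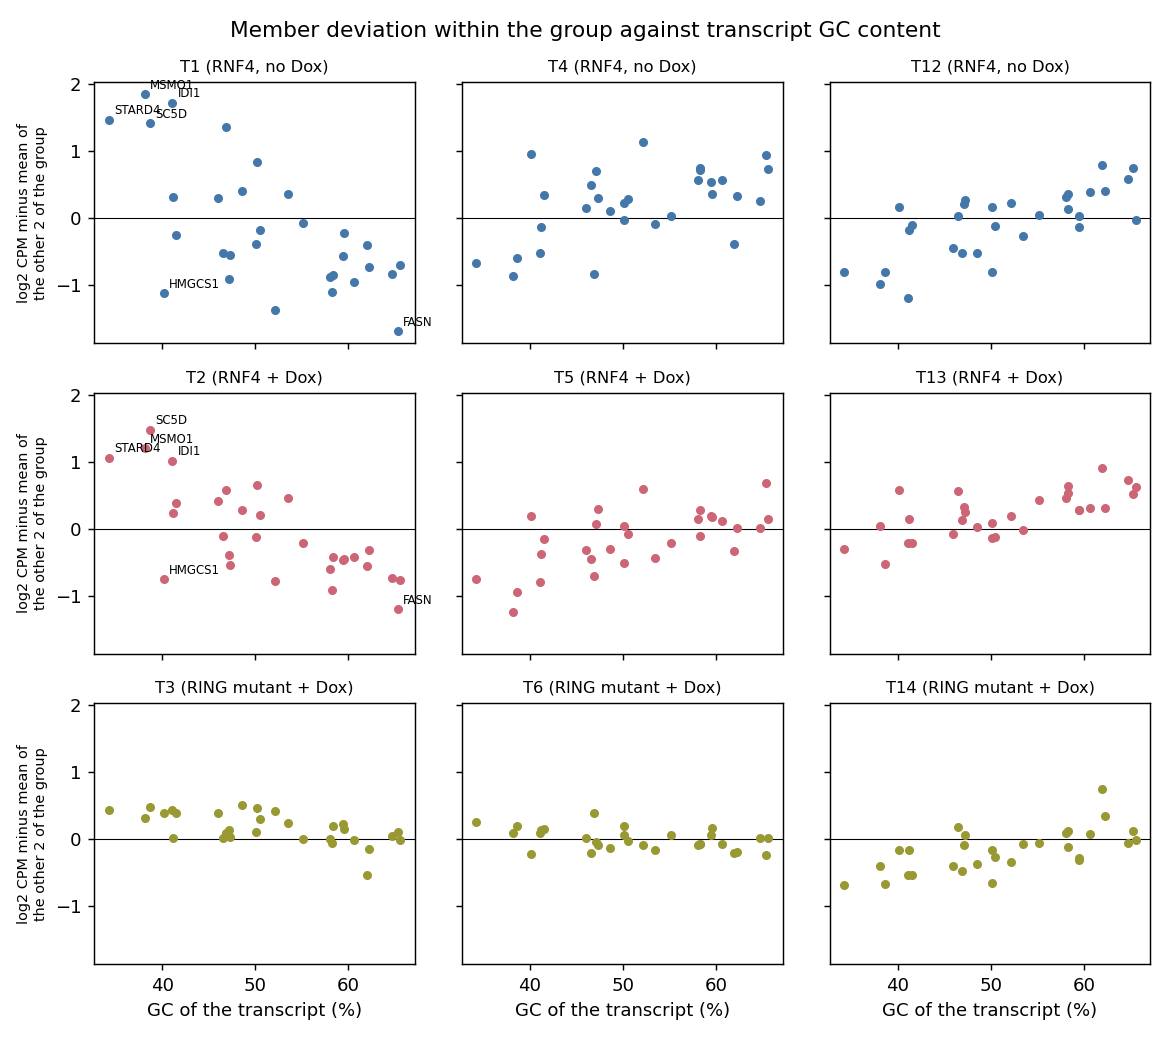
Deviation of each library from the mean of the other 2 of its group (log2 CPM) against the GC content of the transcript (%), 1 panel per library and 1 point per member. Points fall from left to right in T1 and T2, fall over a narrower range in T3 and T6, and rise in T4, T5, T12, T13 and T14, and HMGCS1 lies below the trend in T1 and T2.

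The runs of column numbers were tested in a fit with group as a further term. In edgeR's quasi-likelihood test, adjusted by Benjamini-Hochberg, 0 of 30 members passed an adjusted p of 0.05, beside 0% of all genes, and 6 passed 0.1 (ACAT2, IDI1, TM7SF2, MSMO1, SC5D and STARD4), beside 14.2% of genes. At an unadjusted p under 0.05 there were 7, LSS being added, beside 30.5%. For TM7SF2 the run means were 7.41, 8.08 and 13.6 CPM (adjusted p = 0.0829 in edgeR's test). SCAP was the only other member for which T12, T13 and T14 lay above the remaining 6 libraries, and 7.95% of all genes had that order. Fibroblast markers, summed over 6 genes, were at 2282, 3471 and 3955 CPM in T12, T13 and T14, against 576 to 1999 CPM elsewhere. Skeletal muscle markers, summed over 13 genes, were at 16.8, 216 and 794 CPM in those 3 libraries and 15 to 111 CPM elsewhere. The fibroblast sum is nearly all collagen: COL1A1, COL1A2 and COL3A1 reached 2038, 815 and 1087 CPM. DCN, LUM and PDGFRA reached no more than 6.56, 4.65 and 6.63 CPM in any library. Whether these marker transcripts bear on TM7SF2 was not tested. Adipocytes also make fatty acids; their markers summed to 3.62 to 14.3 CPM over 10 genes, and ADIPOQ had 0 counts in every library. The part of adipocyte transcripts in the fatty acid genes was not tested.

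The other genes of these pathways had no calls either, beside 0% of all 18618 genes tested in each comparison. In induced against untreated RNF4, edgeR's quasi-likelihood test, Benjamini-Hochberg adjusted, called 0 of 13 further sterol and isoprenoid genes, 0 of 8 further SREBP control genes, 0 of 12 sterol storage and export genes, 0 of 21 further fatty acid genes and 0 of 12 glycerolipid genes. The medians of the log2 changes were 0.05, 0.04, −0.00343, 0.06 and 0.04 in that order, beside −0.03 over all genes, and none of the 5 lists had a call in either comparison with the RING mutant. The 2 genes of each list with the smallest p in the first comparison were as follows. POR, the electron donor for sterol demethylation, had a log2 change of 0.22 (SE 0.21), and PDSS1, a prenyl diphosphate synthase of ubiquinone synthesis, 0.16 (SE 0.20). MBTPS2, a protease that cleaves SREBP, had 0.10 (SE 0.18), and SPRING1, which supports SREBP cleavage, −0.06 (SE 0.21). CH25H, the cholesterol hydroxylase, had −0.50 (SE 0.52) on 5 to 22 counts per library, and NPC2, a lysosomal sterol carrier, −0.47 (SE 0.53). NPC2 shared the high T1 and T2 of MSMO1, at 189 CPM in T1 and 107 CPM in T2 against 43.7 to 69.8 CPM elsewhere. TECR, the last enzyme of the elongation cycle, had 0.25 (SE 0.18), and ACSL5, an acyl-CoA synthetase, 0.36 (SE 0.30). PNPLA3, a lipid droplet hydrolase, had −0.26 (SE 0.27), and DGAT2, which completes triglycerides, 0.22 (SE 0.26). Each of these 10 intervals included 0.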

How the data were processed

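Expression was measured by RNA sequencing in 9 libraries, 3 per group. Per the submitters' processing notes, reads were processed with TopHat2 2.0.13 and HTSeq 0.6.0, DESeq2 1.10.1 was used and the build is GRCh38; the annotation release and counting options are not given in the sources used here. The authors deposited 3 tables, 1 per comparison, with the same raw counts per gene, their log2 fold changes and adjusted p-values. The authors' normalised values (9 columns in each table) were not used. Column names give the group but match no sample title, so columns stand for a group's replicates only; p-values measure the spread between tumour pools.

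Counts were fitted in R 4.3.3 with edgeR 4.0.16: filterByExpr kept 18618 genes, library sizes were scaled by TMM, and all 9 libraries entered 1 quasi-likelihood model with 3 group means. Tests were two-sided, with Benjamini-Hochberg adjustment over all genes tested and a threshold of 0.05. The SE was derived from the F statistic, as absolute log2 change divided by its square root. DESeq2 1.42.0 and limma 3.58.1 served as alternatives, and the script was tested on simulated data. Deviations are in log2 CPM with a prior count of 2; transcript length and GC content are those of the GENCODE 29 principal transcript. Deviations from the group means of libraries with neighbouring column numbers, from the lowest run of numbers to the highest, had correlations of 0.67, 0.48 and 0.44 between induced and untreated RNF4, 0.16, 0.25 and 0.57 between induced RNF4 and the mutant, and 0.086, 0.00044 and 0.40 between the mutant and untreated RNF4. The pairing of the last was thus not clear; runs were tried as a block in all 3 comparisons.

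Members, gene lists and tests were chosen with earlier results of these data known. All members were named, RNF4, and from each other list the 2 genes with the smallest p in induced against untreated RNF4. Marker lists for leukocytes (summed level 95.3 to 180 CPM), keratinocytes (122 to 634 CPM) and endothelium (8.46 to 41.9 CPM) were also read.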

Additional observations from a re-analysis of the deposited data

How the results depend on the processing

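The count of members called was 0 in the 3 group comparisons under every alternative run; with each library left out in turn the count of genes called was also 0. The count of genes called did move. Without a filter on low counts it was 3 for induced against untreated RNF4 and 38 for induced RNF4 against the RING mutant. In the same setting it was 109 for the mutant against untreated RNF4 and 87 for any group difference. For the runs of column numbers 4739 genes were called there, and 9 of the 30 members. The number of genes fitted without the filter is not given here, so the 9 members have no background share beside them. DESeq2 called 3, 1 and 4 genes in the 3 comparisons. Of the alternatives chosen after seeing the data, edgeR's likelihood ratio test called 1, 3 and 5, and leaving out T1 and T2 gave 1 gene for the mutant against untreated RNF4. The replicate block of column runs gave 0 genes and 0 members in each comparison; the replicate numbers of the titles could not be tied to columns.

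The direction of most members was not stable. The sign of the log2 value differed from the one reported in 85 of 480 refitted values (29 of 30 members at least once) for induced against untreated RNF4, in 91 of 510 (25 members) for induced RNF4 against the mutant and in 89 of 510 (25 members) for the mutant against untreated RNF4; none of these values was called. Shifts above 1 SE numbered 9, 4 and 20. The largest values were −0.86 (IDI1 without T2), 0.61 (SC5D without T5) and −0.89 (IDI1 without T12), in that order of comparisons.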
